A study of Homo sapiens with 6 samples.

Results

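The proteins of the cytoplasmic ribosome are encoded by single-copy genes scattered over the genome. The genes examined here were those whose symbol is RPL or RPS followed by a number, alone or with the ending A, X, L or L1, together with RPLP0, RPLP1, RPLP2 and RPSA. The rule used names only and no measured value, and it found 84 of the 27968 genes in the files: 43 of the large subunit, 31 of the small subunit, 3 of the stalk and 7 paralogs. RNA was sequenced from A549 and from H23, both established human lung cancer cell lines from adenocarcinomas. Each line gave 3 libraries from independent, untreated cultures, A549 grown in DMEM and H23 in RPMI 1640, both with 10% fetal bovine serum, and all were harvested at about 80% confluence. Medium and line changed together, so their effects cannot be told apart, and each line stands for 1 tumour. The study's title sets the question of how the transcriptomes of these lines differ, and here it is put to the genes of the ribosome.

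A ribosome holds a small subunit, which reads the mRNA, and a large subunit, which joins amino acids and carries a flexible stalk that recruits translation factors. Most ribosomal proteins occur once per ribosome, so cells are known to make them in matched amounts, and excess free protein is degraded. Their mRNAs typically begin with a cytosine followed by a run of pyrimidines, the terminal oligopyrimidine (TOP) tract, through which the mTORC1 kinase pathway and the RNA-binding protein LARP1 control their translation. A few genes have paralogs that can take the place of the usual protein in the ribosome.

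The A549 libraries held 23399562 to 25348083 estimated read counts and the H23 libraries 29395795 to 42421642. The RNA make-up of the libraries moved with the line. RMRP, the RNA of an endonuclease that acts on precursor rRNA, was at 107360 to 133103 TPM (transcript level scaled for length and depth) in A549 and 1.58 to 8.03 TPM in H23. RPPH1, the RNA of RNase P, was at 68727 to 78235 TPM in A549 and 0.67 to 5.09 TPM in H23, and the 74 histone genes together held 41351 to 43241 TPM in A549 and 352 to 518 TPM in H23. Genes with a protein-coding RefSeq transcript held 58.2% to 61.1% of all TPM in A549 and 95.4% to 96.7% in H23, although the labels name the same library kit for all samples. Make-up and line changed together, so their parts in the folds, shares and usage values below cannot be told apart. Replicate 1 of H23 stood apart from the other H23 libraries: its counts differed from theirs by a chi-square per gene of 105 and 134, against 5.48 between replicates 2 and 3 and 3.72 to 3.91 among the A549 libraries. Among markers of the labelled tissue, the epithelial keratins KRT8 and KRT18 were at 1430 to 1885 TPM in A549 and 1320 to 2639 TPM in H23. KRT19, also a keratin, was at 48.9 to 52.4 TPM in A549 and 4.48 to 6.35 TPM in H23, and the epithelial adhesion genes were low, EPCAM at 2.23 to 2.64 TPM in A549 and 5.75 to 7.98 TPM in H23 and CDH1 at 3.13 to 3.4 TPM in A549 and 9.33 to 15.4 TPM in H23. The distal lung markers were low. NKX2-1 was at 0 in every A549 library and 1.95 to 2.61 TPM in H23. SFTPB and SFTPC stayed under 0.15 TPM, and NAPSA reached 0.79 TPM in A549 and 1.46 TPM in H23. Of 10 markers of blood, endothelium and fibroblasts, PTPRC, CD3E, HBB, PECAM1 and DCN were at 0 to 0.01 TPM in both lines. The endothelial genes CDH5 and VWF reached at most 0.15 and 0.19 TPM. The fibroblast gene LUM was at 0.18 to 0.34 TPM in A549 and 0.84 to 1.21 TPM in H23. The highest of the 10 were CD14, a monocyte gene, at 2.6 to 3.02 TPM in A549 and 2.38 to 4.94 TPM in H23, and the collagen gene COL1A1, at 1.39 to 1.72 TPM in A549 and 4.53 to 7.26 TPM in H23.

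The start sites of 10 genes among those with the largest differences are shown first, without RPL37 and RPL7, because the TOP tract is the feature that ribosomal protein mRNAs are best known to share. Each window runs from 10 bases before to 20 bases after the start of the gene in RefSeq (GRCh38.p14), 5′ to 3′ on the coding strand, and capitals mark the run of pyrimidines that begins with a C at the start site. The windows lie at chr20:62387093-62387122 on the plus strand (RPS21), chr6:34426050-34426079 on the minus strand (RPS10), chr1:153990752-153990781 on the plus strand (RPS27), chr1:6199576-6199605 on the minus strand (RPL22), chr19:1438386-1438415 on the plus strand (RPS15), chr19:49487598-49487627 on the plus strand (RPL13A), chr13:27251548-27251577 on the plus strand (RPL21), chr3:170870176-170870205 on the minus strand (RPL22L1), chr9:19380217-19380246 on the minus strand (RPS6) and chr15:63157458-63157487 on the minus strand (RPS27L). The first 5 were lower in A549 than in H23, and the others were higher.
RPS21: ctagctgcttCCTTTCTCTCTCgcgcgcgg
RPS10: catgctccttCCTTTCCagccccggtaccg
RPS27: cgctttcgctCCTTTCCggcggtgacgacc
RPL22: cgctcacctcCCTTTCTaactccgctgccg
RPS15: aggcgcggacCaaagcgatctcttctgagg
RPL13A: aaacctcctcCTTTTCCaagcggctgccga
RPL21: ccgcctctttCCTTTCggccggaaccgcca
RPL22L1: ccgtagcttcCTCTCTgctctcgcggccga
RPS6: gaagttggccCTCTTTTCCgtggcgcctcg
RPS27L: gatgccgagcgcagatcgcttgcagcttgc

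Long tracts stood on both sides of the comparison. The tract was 12 bases in RPS21, 9 in RPS6, 7 in RPS10, RPS27, RPL22 and RPL13A, and 6 in RPL21 and RPL22L1. The annotated start of RPS15 began with a single C and that of RPS27L with none. Of the 84 genes, 67 had an entry in the RefSeq table, with 83 start sites, of which 47 (56.6%) carried a tract of at least 5 bases, against 1429 of 35116 start sites of all genes (4.07%).

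Ribosomal protein mRNAs were on balance lower in A549 than in H23, but not as a block. Of the 82 genes tested, 15 were higher in A549 and 47 were lower in A549, and 20 did not pass edgeR's quasi-likelihood test with an adjusted p under 0.05. RPS21, RPS10, RPS27 and RPL37 were lowest in A549 relative to H23, and RPL13A, RPS6, RPL7 and the paralogs RPL22L1 and RPS27L were higher in A549. RPL3L and RPL10L did not pass the filter on low counts. Over all 15426 genes tested, the same test called 77.2%, 37.6% as higher in A549 and 39.6% as higher in H23, so a call by itself sets the ribosomal genes apart very little. In bulk RNA, fewer cells with a transcript and less of it per cell cannot be told apart.

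The median log2 fold of the 82 genes, A549 over H23, was -0.41 with quartiles of -0.89 and 0.08, against a median of -0.03 and quartiles of -1.04 and 0.99 for all genes tested. The ribosomal genes thus covered a narrower span than genes at large, with the middle of it below 0. At least a 2-fold difference past the test was seen for 6 genes in favour of A549 and 18 in favour of H23, against 24.5% and 25.6% of all genes. The lines did not overlap in normalised count for 67 of the 82, against 82.1% of all genes. Among the 697 other genes in the top 5% by mean CPM (read counts scaled to library size, not to length), 254 were higher and 321 lower in A549, with a median of -0.17.

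The balance depended on the scale and on 1 library. Of the genes called, 75.8% were higher in H23, against 51.3% of all calls. With limma on log2(TPM + 1), a scale whose total is fixed in each library, these shares were 88.2% and 68.4%, and the median log2 fold of all genes was -0.41 in place of -0.03. With TPM taken over protein-coding genes alone they were 65.6% and 45.4%. Without replicate 1 of H23, 24 genes were higher and 49 lower in A549, with a median of -0.29. Calls over all genes also rose, to 6839 higher and 6935 lower in A549 of 15545 tested. The shares higher in H23 were then 67.1% of the ribosomal calls and 50.3% of all calls. The median stayed below that of all genes under each of the 20 alternatives, by 0.29 to 0.69 on the log2 scale. Replicate 1 of H23 also held the most ribosomal protein mRNA: the median log2 CPM over the 82 genes was 9.31, 9.22 and 9.17 in A549 replicates 1, 2 and 3, and 9.91, 9.53 and 9.47 in H23 replicates 1, 2 and 3.

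**Figure D1:**
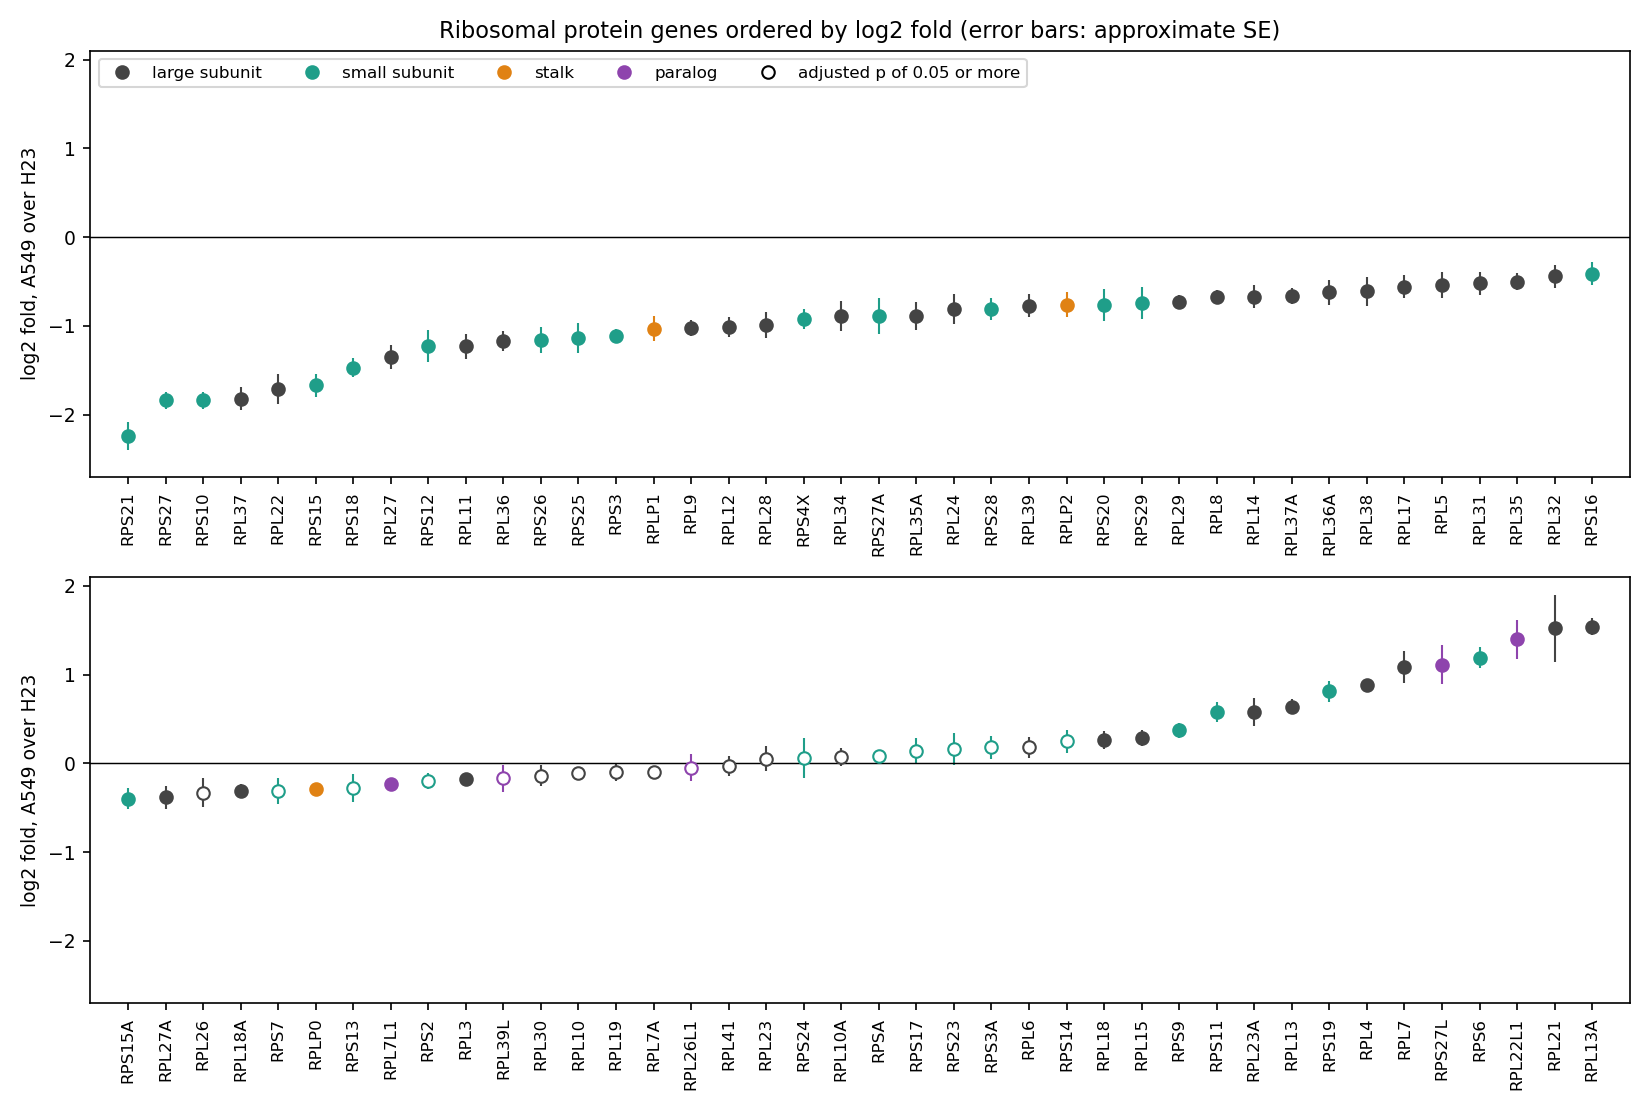
Log2 fold (A549 over H23) of 80 of the 82 tested ribosomal protein genes, ordered from lowest to highest over both panels, with bars for the approximate SE; colour gives the subunit, stalk or paralog and open points did not pass the test. The order starts at RPS21 with -2.24 and ends at RPL13A with 1.54, and both subunits appear along the whole span.

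Genes of both subunits were found on either side. Of 43 large subunit genes, 8 were higher and 26 lower in A549 and 9 did not pass, with a median log2 fold of -0.50. Of 31 small subunit genes, 5 were higher and 17 lower in A549 and 9 did not pass, with a median of -0.41. A difference between the subunits was not tested.

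As a summed level, the 84 genes held 11.6%, 11.4% and 11.8% of all TPM in the A549 libraries and 26.3%, 23% and 22.1% in the H23 libraries. The A549 libraries were alike, all were below the H23 libraries, and H23 replicate 1 was the highest. The means were 11.6% ± 0.178 in A549 and 23.8% ± 2.20 in H23 (SD, n = 3 each), and the exact permutation test gave a two-sided p of 0.1, the smallest that 3 libraries against 3 allow. Over TPM of protein-coding genes the share was 19.5% ± 0.236 in A549 and 24.7% ± 2.48 in H23, and of the expected counts it was 6.02% ± 0.106 in A549 and 7.91% ± 1.13 in H23 (SD, n = 3 each). The lines stayed apart on each scale, but the A549 minus H23 difference was -12.2 points over all TPM and -5.2 points over protein-coding TPM. Without H23 replicate 1 these were -10.9 and -3.79 points, and the difference in expected counts was -1.24 in place of -1.89 points. The part that RMRP, RPPH1 and histone RNA play in the first value was not tested beyond this.

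**Figure D2:**
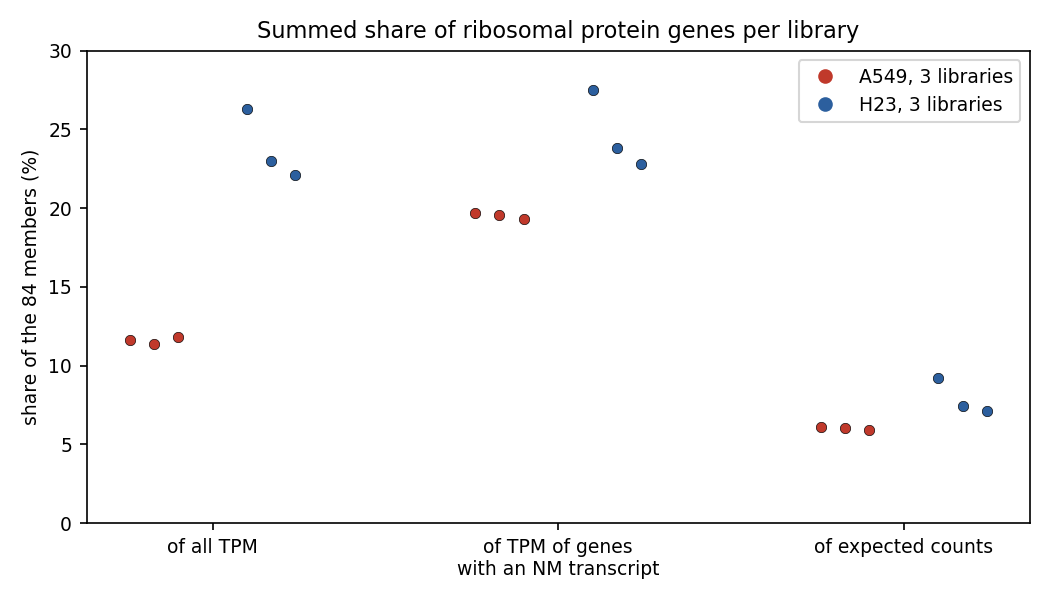
Summed share of the 84 ribosomal protein genes in each library (%), as a share of all TPM, of TPM of genes with a protein-coding (NM) transcript and of expected counts, with 3 A549 and 3 H23 points per measure. A549 sits below H23 in each, at 11.4% to 11.8% against 22.1% to 26.3% of all TPM.

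The small subunit gene RPS21, which encodes a short protein of that subunit, differed most. It had 216, 198 and 196 CPM in A549 and 1201, 900 and 791 CPM in H23. The highest A549 library was far below the lowest H23 library. Its log2 fold was -2.24 ± 0.16 (approximate SE, n = 3 per line, adjusted p = 2.05e-05).

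RPS10 sits near the entry of the mRNA channel and is ubiquitinated when ribosomes collide. It had 494, 489 and 476 CPM in A549 and 1983, 1603 and 1636 CPM in H23, without overlap. RPS27, a zinc-finger protein of the small subunit, had 525, 501 and 495 CPM in A549 and 2034, 1674 and 1742 CPM in H23. Both had a log2 fold of -1.84 ± 0.10 (edgeR, adjusted p = 6.31e-06 for RPS10 and 4.9e-06 for RPS27). In each, the A549 libraries differed by little and H23 replicate 1 was the highest of all.

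RPL37, a zinc-finger protein of the large subunit, had 631, 590 and 577 CPM in A549 and 2529, 1947 and 1863 CPM in H23 (log2 fold -1.82 ± 0.13, edgeR adjusted p = 2.05e-05). RPL22, an RNA-binding protein of the large subunit, had 296, 291 and 276 CPM in A549 and 1205, 787 and 838 CPM in H23 (log2 fold -1.71 ± 0.17, edgeR adjusted p = 9e-05). RPS15, a protein near the decoding centre, had 253, 225 and 252 CPM in A549 and 862, 810 and 643 CPM in H23 (log2 fold -1.67 ± 0.13, edgeR adjusted p = 2.64e-05). None of these 3 overlapped between the lines, and replicate 1 was the highest H23 library in each. Without it the folds of the 6 genes lay between -2.06 for RPS21 and -1.50 for RPL22. Their direction and call held under every alternative. With the trend of fold against GC content and length removed, the short genes moved further, RPS21 to -4.37, RPS27 to -4.43 and RPS15 to -3.11. RPS10 moved to -2.37, and the longer RPL37 and RPL22 moved the other way, to -1.63 and -1.57. That trend was fitted over the 14844 tested genes of any kind with a known GC content. Which short RNAs set it was not tested, so the size of these shifts is uncertain.

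In the other direction, RPL13A, a large subunit protein that also leaves the ribosome to silence inflammatory mRNAs, had 987, 966 and 971 CPM in A549 and 380, 320 and 303 CPM in H23. The A549 libraries were all above the H23 libraries. Its log2 fold was 1.54 ± 0.10 (edgeR, adjusted p = 1.3e-05).

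RPS6, the small subunit protein phosphorylated by S6 kinase below mTORC1, had 1336, 1406 and 1266 CPM in A549 and 689, 512 and 558 CPM in H23 (log2 fold 1.19 ± 0.12, edgeR adjusted p = 0.000116). RPL7, a large subunit protein, had 1281, 1222 and 1196 CPM in A549 and 753, 512 and 474 CPM in H23 (log2 fold 1.09 ± 0.18, edgeR adjusted p = 0.00109). Both were without overlap, and the H23 library nearest to A549 was replicate 1. On log2(TPM + 1) their folds were smaller, 0.67 for RPS6 and 0.59 for RPL7 by limma, and that of RPL13A was 1.01, with each still past the test.

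**Figure D3:**
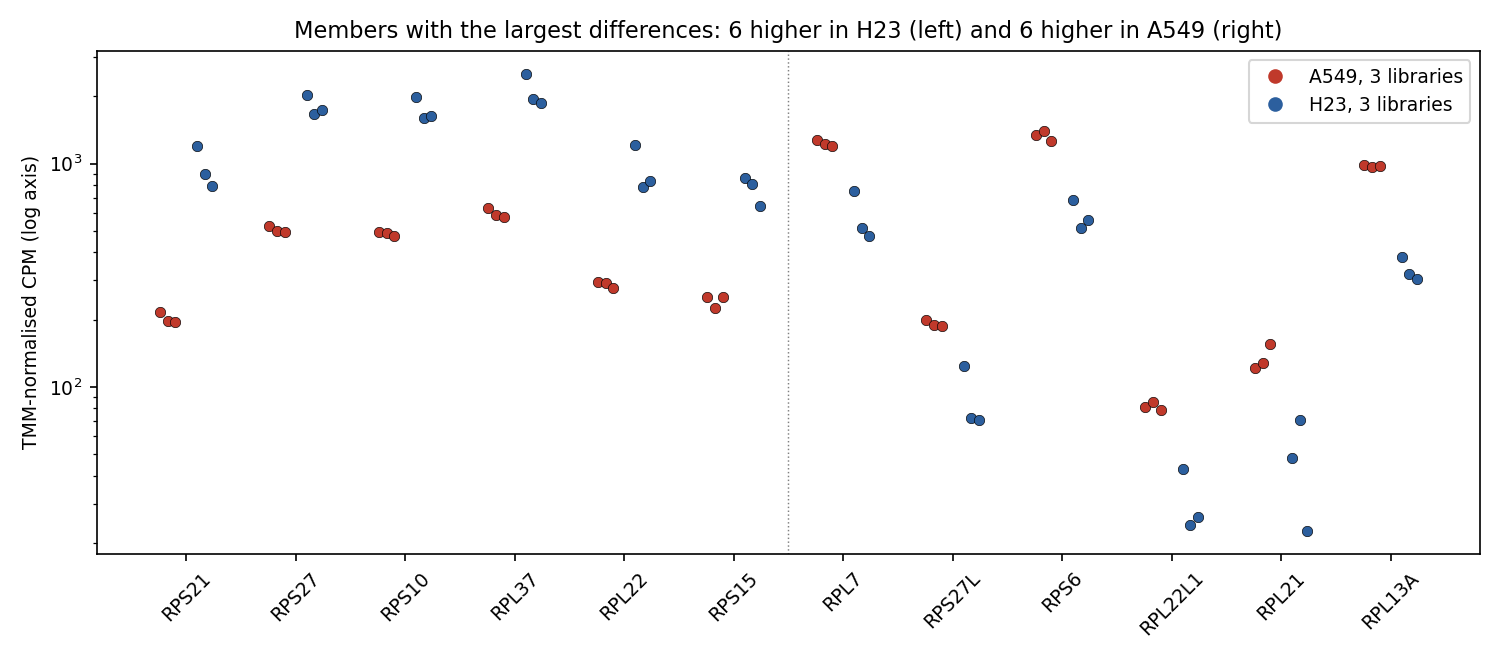
TMM-normalised CPM on a log axis in each of the 3 A549 and 3 H23 libraries for the 6 genes with the largest log2 fold towards H23 (left of the dotted line) and the 6 with the largest towards A549 (right). Genes were chosen among those without overlap of the lines; RPS21 lies at 196 to 216 in A549 and 791 to 1201 in H23.

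RPL21, a large subunit protein, was the gene whose direction turned when the reads of its named pseudogenes were added. It had 122, 128 and 155 CPM in A549 and 47.9, 71.3 and 22.6 CPM in H23 (log2 fold 1.52 ± 0.38, edgeR adjusted p = 0.00853). Its named pseudogene RPL21P28 was at 967.7, 967 and 856.4 TPM in A549 and 4322.9, 3086.6 and 3422.2 TPM in H23, above RPL21 itself in every library. With the reads of RPL21 and its named pseudogenes added together, the level was 469 ± 15.2 CPM in the A549 libraries and 957 ± 204 CPM in the H23 libraries (SD, n = 3 each). The pooled log2 fold was -1.03 ± 0.15 (edgeR, adjusted p = 0.000621), the opposite direction. The direction of RPL21 is therefore uncertain, and its call was also lost without H23 replicate 1 (1.57, edgeR adjusted p = 0.0798) and with the trend of fold against GC content and length removed (0.71, edgeR adjusted p = 0.123).

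The named pseudogene of RPL13A with the highest level was RPL13AP5, which was at 3128.6, 3222.6 and 3084.4 TPM in A549 and 2807.4, 2545.9 and 2559.9 TPM in H23. Pooled, RPL13A reached 2388 ± 70.8 CPM in the A549 libraries and 1161 ± 128 CPM in the H23 libraries (SD, n = 3 each; log2 fold 1.04 ± 0.10, edgeR adjusted p = 6.9e-05), so it remained higher in A549. Of the other genes with a named pseudogene or readthrough gene in the files, RPL36A moved from -0.62 to -0.71 on the log2 scale and RPSA from 0.08 to 0.13, and the rest moved by at most 0.01. Pooling left 14 genes higher and 48 lower in A549. Unnamed copies elsewhere in the genome were not part of this pooling.

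**Figure D4:**
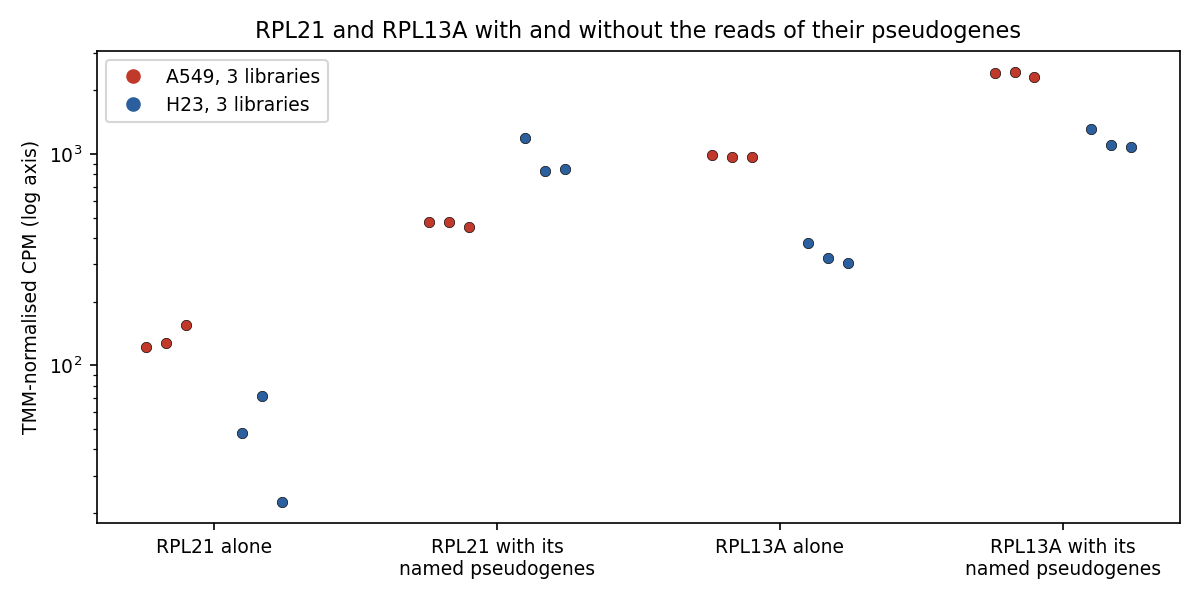
TMM-normalised CPM on a log axis of RPL21 and RPL13A, alone and with the reads of their named pseudogenes added, in 3 A549 and 3 H23 libraries. RPL21 alone is higher in A549 and the pooled RPL21 is higher in H23, at 469 against 957 on average, while RPL13A is higher in A549 both ways.

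In 3 pairs the paralog and its partner passed the test in opposite directions: RPL22L1 and RPL22, RPS27L and RPS27, and RPL7L1 and RPL7. RPL22L1, the paralog of RPL22, had 81.5, 85.5 and 79.1 CPM in A549 and 42.9, 24.1 and 26.0 CPM in H23 (log2 fold 1.40 ± 0.22, edgeR adjusted p = 0.000927). RPS27L, the paralog of RPS27 and a known transcriptional target of p53, had 200, 189 and 188 CPM in A549 and 124, 72.7 and 70.9 CPM in H23 (log2 fold 1.11 ± 0.22, edgeR adjusted p = 0.00291). Both paralogs were higher in all A549 libraries, while RPL22 and RPS27 were lower in all of them. On log2(TPM + 1) the folds of these paralogs were smaller, 0.89 for RPL22L1 and 0.62 for RPS27L by limma, each still past the test. Removing the trend of fold against GC content and length gave 0.84 for RPL22L1 and 1.08 for RPS27L, also past the test.

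As a share of the pair's summed TPM, RPL22L1 made up 22.7%, 23.9% and 23.4% in A549 and 3.63%, 3.14% and 3.17% in H23. RPS27L made up 7.13%, 6.78% and 7.07% of its pair in A549 and 1.23%, 0.903% and 0.831% in H23. The libraries of a line were close to each other and the lines far apart, with means of 23.3% ± 0.595 in A549 and 3.32% ± 0.276 in H23 for RPL22L1, and 6.99% ± 0.188 in A549 and 0.988% ± 0.212 in H23 for RPS27L (SD, n = 3 each). Within a pair the total TPM of a library cancels. The mRNAs of a pair can still differ in length, with 360 bases for RPS27 and 1084 for RPS27L. Whether the difference in RNA make-up between the libraries acted on both mRNAs of a pair to the same degree was not tested. In mouse cells, Rpl22 is known to bind and repress the mRNA of Rpl22l1, and the proteins replace each other in the ribosome.

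RPL7L1, a paralog of RPL7 known as a factor in ribosome assembly, went the other way from RPL22L1, at 2.89% ± 0.0484 of its pair in A549 and 7.28% ± 1.78 in H23 (SD, n = 3 each). Its own level was 207, 201 and 200 CPM in A549 and 229, 237 and 247 CPM in H23 (log2 fold -0.23 ± 0.07, edgeR adjusted p = 0.0207), while RPL7 was higher in A549; the call of RPL7L1 was lost under 7 of the alternatives. RPL26L1 made up 3.44% ± 0.121 of its pair in A549 and 2.93% ± 0.0665 in H23, and RPL39L, known for its high level in testis, 1.81% ± 0.0869 in A549 and 1.23% ± 0.0128 in H23 (SD, n = 3 each). RPL26L1 had 44.6, 43.4 and 40.0 CPM in A549 and 54.3, 38.5 and 39.4 CPM in H23, and RPL39L had 26.5, 29.1 and 26.3 CPM in A549 and 37.5, 27.9 and 26.7 CPM in H23. In both genes the lines overlapped, with log2 folds of -0.05 ± 0.15 and -0.17 ± 0.15 that did not pass. RPL36AL, a paralog of RPL36A whose name falls outside the rule, made up 42.3% ± 0.440 of its pair in A549 and 31.8% ± 4.95 in H23 (SD, n = 3 each). The order of the pairs depended on the scale: in expected counts, which do not correct for length, the A549 minus H23 difference in share was 19.1 points for RPL22L1 and 22.9 points for RPS27L, against 20 and 6.01 points on the TPM scale.

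RPL3L, a paralog of striated muscle, and RPL10L, a paralog of the male germ line, were at 0 to 0.16 TPM and 0 to 0.17 TPM in every library. A floor of 3 counts in 1 library was worth 0.118 to 0.128 CPM in A549 and 0.0707 to 0.102 CPM in H23, so these genes were at or near the limit of detection. Over the 8 pairs compared, 6 had shares without overlap of the lines, each with an exact permutation p of 0.1, the smallest possible, and 0.133 after adjustment over the 8. These shares therefore could not pass the threshold in a design of 3 against 3.

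**Figure D5:**
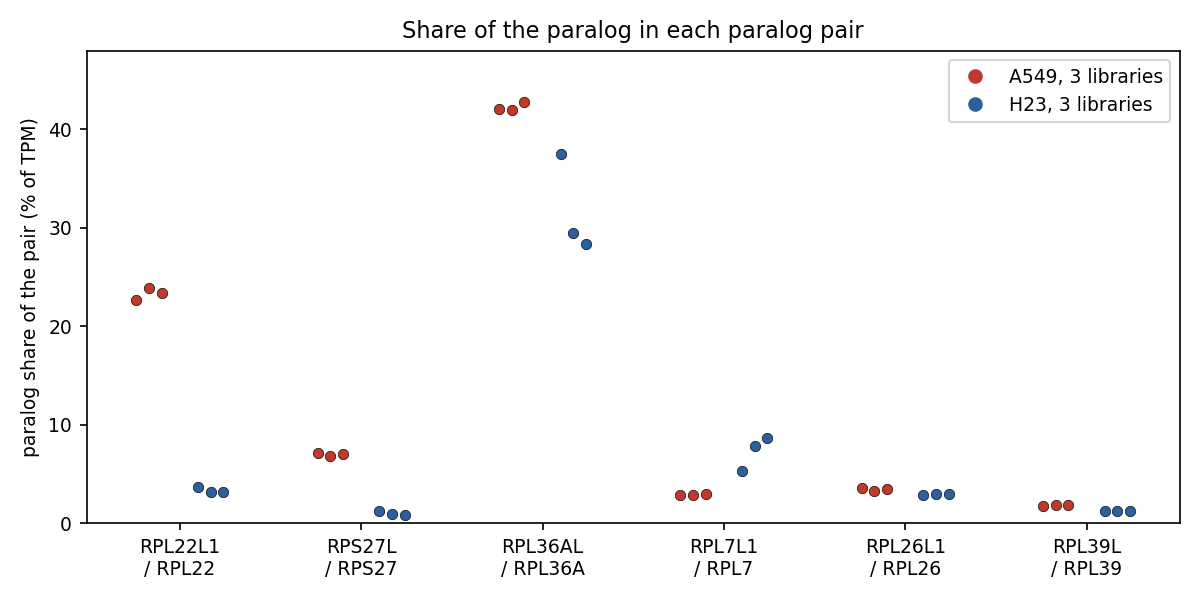
Share of the paralog in the summed TPM of each paralog pair (%), with 3 A549 and 3 H23 points per pair. RPL22L1 stands at 22.7% to 23.9% in A549 and 3.14% to 3.63% in H23, RPL7L1 is the one pair of those drawn where H23 is higher, and RPL3L and RPL10L, near 0, are left out.

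The bases before the start sites of RPL22 and RPL22L1 are shown because this pair had the largest change in share on the TPM scale. Each run covers 250 bases before and 20 after the RefSeq start (GRCh38.p14, 5′ to 3′ on the coding strand), at chr1:6199576-6199845 on the minus strand for RPL22 and chr3:170870176-170870445 on the minus strand for RPL22L1. Capitals mark matches to the searched motifs.
RPL22: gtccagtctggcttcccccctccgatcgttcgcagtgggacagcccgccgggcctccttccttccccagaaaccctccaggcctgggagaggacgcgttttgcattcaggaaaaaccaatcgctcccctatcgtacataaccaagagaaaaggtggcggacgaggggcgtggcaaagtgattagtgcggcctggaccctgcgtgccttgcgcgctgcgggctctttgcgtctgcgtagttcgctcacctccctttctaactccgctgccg
RPL22L1: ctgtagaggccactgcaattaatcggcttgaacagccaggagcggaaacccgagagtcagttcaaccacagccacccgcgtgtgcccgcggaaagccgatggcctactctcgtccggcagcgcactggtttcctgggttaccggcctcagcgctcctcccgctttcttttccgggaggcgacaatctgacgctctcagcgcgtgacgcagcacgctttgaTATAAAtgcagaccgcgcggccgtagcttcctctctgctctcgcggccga

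The search covered 5 motifs on both strands, each named below. RPL22L1 held TATAAA alone, whose first base lay at position -30 from the start, and RPL22 held none in this window. No matches overlapped. Over the 300 bases of each RefSeq entry, CCGGAAG was found in 33.7% of the 83 ribosomal protein start sites and 10.26% of the 35116 of all genes. AAGATGGC was found in 8.4% against 2.89%, GGGCGG in 54.2% against 44.95%, TATAAA in 8.4% against 11.53% and CACGTG in 6.0% against 7.26%. A match is a description of the letters only.

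All 3 stalk genes were lower in A549. RPLP0, the scaffold of the stalk, had 2515, 2445 and 2455 CPM in A549 and 3199, 3011 and 2886 CPM in H23. RPLP1 and RPLP2 encode the paired acidic proteins that contact elongation factors. RPLP1 had 641, 497 and 574 CPM in A549 and 1344, 1096 and 1044 CPM in H23, and RPLP2 had 479, 482 and 443 CPM in A549 and 960, 697 and 718 CPM in H23. The lines overlapped in none of them.

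The log2 folds of the stalk genes were -0.29 ± 0.07 for RPLP0, -1.03 ± 0.14 for RPLP1 and -0.76 ± 0.14 for RPLP2 (edgeR, adjusted p = 0.00823, 0.000396 and 0.00174). The call of RPLP0 was lost in 4 alternatives, to an adjusted p of 0.057 without A549 replicate 2, 0.0579 without A549 replicate 3, 0.0558 by limma on protein-coding TPM and 0.151 with the trend of fold against GC content and length removed. In the last it turned to 0.13, and the acidic proteins moved to -2.24 for RPLP1 and -2.20 for RPLP2.

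By mean TPM over the 6 libraries, the genes with the highest levels per length were RPS27, RPS18, RPL37A, RPL41 and RPL39. RPS27 was at 3009, 2994 and 3027 TPM in A549 and 16037, 13999 and 14942 TPM in H23. RPS18, a protein of the head of the small subunit, was at 2462, 2342 and 2630 TPM in A549 and 10722, 15485 and 10170 TPM in H23. The H23 libraries were the higher ones for both, and the order of these genes was not the same in the lines, since RPL41 was the highest of the 5 in A549. Within a line, genes outside the 5 could be higher. RPS19 averaged 4648 TPM in A549, against 4554 TPM for RPL41. RPS21 averaged 6650 TPM in H23, against 6581 TPM for RPL39 and 6376 TPM for RPL41.

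RPL37A, a zinc-finger protein of the large subunit, was at 3494, 3576 and 3535 TPM in A549 and 8227, 7882 and 7457 TPM in H23. RPL41, the shortest ribosomal protein, was at 4632, 4347 and 4683 TPM in A549 and 6714, 6729 and 5685 TPM in H23. RPL39, which lines the exit tunnel, was at 2777, 2776 and 2720 TPM in A549 and 7546, 6216 and 5980 TPM in H23. On this scale no A549 library reached an H23 library in any of the 5.

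On the CPM scale, the log2 folds were -1.47 ± 0.11 for RPS18, -0.66 ± 0.09 for RPL37A and -0.77 ± 0.13 for RPL39 (edgeR, adjusted p = 2.06e-05, 0.000432 and 0.00138). RPL41, by contrast, had 1309, 1203 and 1244 CPM in A549 and 1414, 1313 and 1106 CPM in H23, and its log2 fold of -0.03 ± 0.11 did not pass (edgeR, adjusted p = 0.811). With the trend of fold against GC content and length removed, RPS18, RPL37A and RPL39 moved to -2.93, -2.42 and -2.41. RPS18 is listed in the files at several copies of 1 transcript, of which 1 is 148 bases long and the others 542 bases. The short copy took 11%, 0% and 19.4% of the TPM of RPS18 in A549 and 12.6%, 47.7% and 15.3% in H23. In H23 replicate 2, where its share was highest, RPS18 had the highest TPM and the lowest CPM of the H23 libraries, so the level per length of RPS18 is uncertain.

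The genes nearest to no difference were RPL41, RPL23 and RPL26L1. RPL23, a large subunit protein that also binds MDM2, had 925, 865 and 906 CPM in A549 and 1055, 773 and 769 CPM in H23, with overlap of the lines and a log2 fold of 0.05 ± 0.14 (edgeR, adjusted p = 0.726). The directions of these 3 small folds turned under several alternatives. Without H23 replicate 1, RPL23 passed the test with a log2 fold of 0.22 (edgeR, adjusted p = 5.57e-05), and RPL26L1 passed with 0.13 (edgeR, adjusted p = 0.0461).

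Other members with known roles outside the ribosome or in disease lay on both sides. RPL11 and RPL5, which with the smallest large-subunit rRNA bind MDM2, were lower in A549, with log2 folds of -1.23 ± 0.14 and -0.54 ± 0.15 (edgeR, adjusted p = 0.000179 and 0.012). Without A549 replicate 3 the call of RPL5 was lost, at -0.49 (edgeR, adjusted p = 0.0563). RPS19, the gene most often mutated in Diamond-Blackfan anaemia, averaged 1804 ± 28.7 CPM in A549 and 1027 ± 156 CPM in H23 (SD, n = 3 each), with a log2 fold of 0.81 ± 0.12 that passed the test (edgeR, adjusted p = 0.000557). It was 0.24 by limma on log2(TPM + 1) (adjusted p = 0.0441), and with the trend of fold against GC content and length removed it turned to -0.13 and did not pass (edgeR, adjusted p = 0.342). RPSA, also known as the laminin receptor precursor, did not pass, with 1656 ± 18.8 CPM in A549 and 1565 ± 87.3 in H23 (SD, n = 3 each). Its sign depended on the scale, at -0.46 by limma on log2(TPM + 1) and 0.12 without H23 replicate 1 (edgeR, adjusted p = 0.00989). RPL4, a protein at the exit tunnel, was up in A549 at a log2 fold of 0.88 ± 0.07 (edgeR, adjusted p = 2.89e-05).

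Among the ribosomal genes, the fold tended to rise with transcript length and was little related to GC content or level. Across the 82 genes, Spearman's rho of log2 fold was 0.342 with transcript length, -0.0773 with GC content and 0.049 with level, against 0.126, -0.269 and 0.0726 across all genes tested. Genes of 1 comparison share libraries and depth, so these values are descriptions. By start site, the 47 genes with a TOP tract had a median log2 fold of -0.61 (8 up and 29 down in A549 past the test), and the 19 tested genes without one had -0.31 (3 up and 11 down). The range within each was wider than that difference, from -2.24 to 1.54 with a tract and from -1.67 to 1.11 without. The ribosomal mRNAs were short, with a median length of 723 bases against 2924 for all genes tested. By chromosome, the 5 genes on chromosome 6 had a median log2 fold of -1.23, against -0.58 for the 714 other genes, with 4 lower in A549. The 5 on chromosome 1, all lower in A549, had the same median of -1.23, against -0.59 for the 1429 other genes there, and the 3 on chromosome 4, of which 2 were lower, had -0.89 against 0.51 for 504 others. The 12 on chromosome 19 were split evenly, 6 higher and 6 lower in A549. The ribosomal median was below that of the other genes on every chromosome with tested ribosomal genes except 12, 13, 19 and 22. Chromosomes 1, 4 and 6 shared that direction with most others, and whether they differed beyond it was not tested. The share of other genes called was not counted by chromosome. DNA copy number was not measured in these data.

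Transcript usage, the share of each annotated transcript in its gene, changed in 25 of the 47 ribosomal genes with several transcripts (edgeR's diffSpliceDGE, adjusted p under 0.05), against 25.9% of the 7539 genes tested. The latter share is over genes of all levels. Genes with counts as high as the ribosomal ones were not compared for usage, so the part of depth in this contrast was not tested. In most of them the shift was small, and 4 had a transcript whose share moved by at least 10 percentage points. The count ran from 17 to 28 when 1 library was left out.

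RPL22L1 was among these. Its non-coding transcript NR_135259 made up 4.04%, 4.02% and 5.66% of the gene in A549 and 21.1%, 26.3% and 29.4% in H23. Its main coding transcript NM_001099645 made up 85.3%, 86.2% and 86.2% in A549 and 71.3%, 69.3% and 65.2% in H23 (edgeR, adjusted p = 0.00563). The libraries of the lines did not overlap, and the coding share was higher in A549, the line with the higher gene level.

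In RPL28, a large subunit protein, NM_001136135 made up 62.1%, 58.5% and 57.1% in A549 and 80.6%, 74.9% and 71.4% in H23, while the long NM_000991 made up 19.7% ± 1.19 in A549 and 9.54% ± 0.935 in H23 (SD, n = 3 each; edgeR, adjusted p = 0.000272). In RPL38, known in mouse for its part in translating Hox mRNAs, NM_001035258 made up 22.2%, 20% and 23.8% in A549 and 9.80%, 8.40% and 8.37% in H23 (edgeR, adjusted p = 0.0024). In RPL34, a large subunit protein, NM_001319235 made up 1.16%, 1.51% and 4.26% in A549 and 12.0%, 16.4% and 15.5% in H23 (edgeR, adjusted p = 0.0222). The leading transcript was the same in both lines in all 4 genes.

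Around the ribosome itself, the lists of translation and ribosome-making genes were mixed. Among ribosomal proteins with names outside the rule, RACK1, a scaffold on the small subunit, was higher in A549 (log2 fold 0.25 ± 0.07, edgeR adjusted p = 0.0112). It turned to -0.29 by limma on log2(TPM + 1) (adjusted p = 0.00582). FAU and RPL36AL had log2 folds of -0.16 ± 0.10 and -0.05 ± 0.28 and did not pass; without H23 replicate 1, RPL36AL was at 0.37 (edgeR, adjusted p = 3.73e-08). Of 15 other mRNAs known to carry a TOP tract, 3 were higher in A549 and 9 were lower, with a median of -0.20. Among those lower in A549 were PABPC1, the poly(A)-binding protein, with a log2 fold of -1.57 ± 0.15, the RNA-binding protein HNRNPA1 with -0.91 ± 0.18 and the elongation factor EEF2 with -0.79 ± 0.17. The initiation factors EIF4B, EIF3E and EIF2A were higher in A549, with 1.12 ± 0.07, 1.09 ± 0.27 and 0.67 ± 0.23, the last a call lost under 8 of the alternatives.

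Of 15 genes of the RNA polymerase I machinery, which transcribes precursor rRNA, 3 were higher in A549 and 7 were lower, with a median log2 fold of -0.43. The polymerase subunits POLR1C, POLR1E and POLR1A were lower in A549, with -1.37 ± 0.09, -1.16 ± 0.08 and -1.06 ± 0.20. TAF1B, a promoter factor, was higher in A549, with 2.03 ± 0.16, and its level was 58.2 ± 1.02 CPM in A549 and 14.2 ± 3.06 in H23 (SD, n = 3 each). The subunit TWISTNB and the initiation factor RRN3 were also higher in A549, with 1.16 ± 0.30 and 0.52 ± 0.09.

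Of 44 pre-rRNA processing and modification factors, 12 were higher in A549, 17 were lower and 15 did not pass, with a median of 0.06. GAR1, a protein of pseudouridylation particles, had the lowest log2 fold of these, -2.11 ± 0.21, and the small subunit processome proteins UTP4 and WDR3 had -1.86 ± 0.09 and -1.65 ± 0.08. WDR43 and WDR36, which belong to the same processome, and the helicase DDX10 were higher in A549, with 1.47 ± 0.11, 1.44 ± 0.16 and 1.16 ± 0.30.

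Of 31 genes for subunit assembly, export and quality control, 11 were higher in A549, 9 were lower and 11 did not pass, with a median of 0.04. EFL1, a GTPase that releases an assembly factor from the large subunit, and the assembly factors GNL3L and GRWD1 were up in A549 at log2 folds of 1.64 ± 0.10, 1.11 ± 0.15 and 1.08 ± 0.14. The assembly factors RPF1, RIOK1 and GTPBP4 were lower, with -1.16 ± 0.18, -1.01 ± 0.15 and -0.67 ± 0.11. Of 18 genes of mTORC1 and TOP mRNA control, 7 were higher in A549 and 7 were lower, with a median of -0.02. The S6 kinase gene RPS6KB1 was higher in A549, with 1.48 ± 0.29, and its relative RPS6KB2 was lower, with -1.40 ± 0.11. The translation repressor EIF4EBP2 and the RNA-binding protein TIAL1 were lower in A549, with -1.77 ± 0.09 and -1.25 ± 0.11, and LARP4 and LARP1B were higher, with 1.10 ± 0.28 and 1.05 ± 0.21. LARP1 itself had 207 ± 15.6 CPM in A549 and 246 ± 49.4 CPM in H23 (SD, n = 3 each) and did not pass (edgeR, adjusted p = 0.192). Without H23 replicate 1 it passed, with a log2 fold of -0.41 (edgeR, adjusted p = 1.72e-07). With the trend of fold against GC content and length removed, EEF2, EIF3E, EIF2A, TWISTNB, RRN3, WDR36, LARP4 and LARP1B no longer passed, and EIF2A and RRN3 changed sign. All genes given here as higher or lower passed edgeR's test at an adjusted p under 0.05 over all genes tested.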

How the data were processed

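Per the labels' protocols, TRIZOL was used to take RNA from 3 cultures per line, and a stranded kit for total RNA that removes rRNA made every library. The submitters' processing notes name STAR 2.6.0c, RSEM 1.3.0 and hg19, and the strand setting is not given in the sources used here. The deposited expected counts are estimates by RSEM of the reads of a gene or transcript before any scaling to depth, per the file headers. Deposited TPM and FPKM values are scaled for length and depth, and TPM to a fixed total, per the file headers; FPKM was not analysed. A deposited percent value is the part of a gene that a transcript makes up. Reads shared by close copies were divided by RSEM's model, an error that the tests leave out.

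Expected counts were rounded and analysed in R 4.3.3 with edgeR 4.0.16 (filterByExpr, TMM, robust quasi-likelihood F test, Benjamini-Hochberg adjustment over all 15426 genes, threshold 0.05). Levels in CPM are TMM-normalised, log2 folds are A549 over H23, and their standard errors, the fold over the square root of F, are approximate. Usage was tested with diffSpliceDGE. TPM was analysed with limma 3.58.1 on log2(TPM + 1), with a pseudocount of 1, and DESeq2 1.42.0 served as an alternative. Each test was tested on simulated data. Values in every library were given for the paralogs, the stalk, the 6 genes with the largest fold in each direction past the test and without overlap, the 5 with the highest mean TPM, the 3 with the smallest fold, and genes past the usage test with a shift of at least 10 points; from the other lists, up to 3 genes per direction. RPL11, RPL5, RPS19, RPSA, RPL4 and LARP1 were chosen after their values were seen. The genes and lists were chosen with earlier results of these data known. Pooling with pseudogenes and TPM over protein-coding genes (those with an NM transcript) were added after seeing the data. Equal replicate numbers were not used to pair the samples in the main test. Some genes are not reported here by name. Floors of depth cover counting error only.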

Additional observations from a re-analysis of the deposited data

How the results depend on the processing

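Under the 20 alternative settings of the gene test, 52 to 62 of the 62 ribosomal genes called kept their call and direction. Of those called, 3 were called in the opposite direction by limma on log2(TPM + 1), 1 with the trend of fold against GC content and length removed and 1 with pooled pseudogene reads. The count of genes higher in A549, 15, was 9 by limma on log2(TPM + 1) and 24 without H23 replicate 1; it was 13 to 24 and the count of genes higher in H23 was 39 to 49 when 1 library was left out. The count over all genes was then 11037 to 13774 and the median of the ribosomal genes -0.49 to -0.29. That median was -0.92 by limma on log2(TPM + 1), -0.72 with the trend removed and -0.23 with TPM over protein-coding genes. The difference in summed share, -12.2 points, was -13.0 to -10.9 when 1 library was left out, -1.89 of expected counts, -9.75 of TPM over genes of at least 200 bases and -5.2 over protein-coding genes. Without H23 replicate 1 the difference in expected counts was -1.24 and that over protein-coding genes -3.79. In expected counts the difference in paralog share was 19.1 points for RPL22L1, 22.9 for RPS27L, -15.6 for RPL7L1, 0.776 for RPL26L1 and 1.4 for RPL39L. Directions turned for RPL23 (-0.07 with upper quartile factors, -0.45 on log2(TPM + 1), -0.71 with the trend removed, -0.03 to 0.22 when 1 library was left out), for RPL41 (0.06 with effective lengths, 0.21 over protein-coding TPM, -0.13 to 0.05 when 1 library was left out), for RPL26L1 (0.13 over protein-coding TPM, -0.14 to 0.13 when 1 library was left out), for RPL39L (0.01 over protein-coding TPM), for RPL36AL (0.04 with the replicate block, 0.22 over protein-coding TPM, -0.23 to 0.37 when 1 library was left out), for RPSA (-0.05 with upper quartile factors, -0.46 on log2(TPM + 1)), for RACK1 (-0.29 on log2(TPM + 1)), for RRN3 (-0.02 on log2(TPM + 1), -0.01 with the trend removed), for FAU (0.03 over protein-coding TPM), for RPLP0, RPS19 and EIF2A (0.13, -0.13 and -0.23 with the trend removed) and for RPL21 (-1.03 pooled). The cause was not tested. With the replicate number as a block, 11691 genes were called over all, against 11910, with 14 ribosomal genes higher in A549 and 45 higher in H23, a median of -0.40 and 19 usage calls in place of 25. The labels do not say whether equal numbers share a culture day or batch. Deviations of same-numbered libraries correlated at 0.0634, -0.0797 and 0.119. Replicates 1 and 3 of A549 correlated best with their own number in H23, and replicate 2 with H23 replicate 1. With 3 libraries per line, and H23 replicate 1 apart from the others, these values cannot decide whether the samples were paired.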
